A study of Equus caballus with 10 samples.

Results

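The insulin-like growth factor (IGF) family was followed in equine tenocytes, the resident fibroblasts of tendon, by the transcripts of 10 genes of the 29196 in the deposited table. The genes were taken by name and comprise the ligands IGF1 and IGF2, the receptor IGF1R, the binding proteins IGFBP2, IGFBP3, IGFBP4, IGFBP5, IGFBP6 and IGFBP7, and the protease PAPPA. All 10 were found in the table and all 10 passed the filter on low values. The study asked whether the IRAK-4 inhibitor PF-06650833 protects tenocytes from interleukin-1β (IL-1β). Tenocytes from the superficial digital flexor tendon of 5 adult horses, called donors 1 to 5 here, were expanded in culture and grown in 3D collagen gels for 14 days in serum-containing medium. From each donor 1 library came from gels given PF-06650833 only (100 nM, added daily), called PF alone, and 1 from gels given IL-1β as well (17 ng/ml every 3 to 4 days), called IL-1β + PF, so that all 10 libraries carried the inhibitor and the comparison shows the response to IL-1β in its presence. The untreated and IL-1β alone cultures of the study were not used here.

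IGF1 and IGF2 are secreted growth factors that signal mainly through the receptor tyrosine kinase IGF1R, and in tendon IGF1 is known for promoting cell growth and collagen synthesis. The binding proteins hold IGFs in the extracellular space and can limit or prolong their action, and IGFBP7 binds IGFs only weakly. PAPPA is a secreted metalloprotease that cleaves IGFBP4 and IGFBP5 and so frees the ligands, and the stanniocalcins STC1 and STC2 inhibit it.

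Expression is given as deposited, on a variance-stabilized log2 scale, where 1 unit is close to a doubling for genes with many reads and 0 reads lie at 3.43. Sequencing depth, estimated from the spacing of the lowest values, was 26700000 to 36200000 reads on genes with PF alone and 27000000 to 33500000 with IL-1β + PF. No library was a copy of another, with correlations of 0.936 to 0.985 across genes. The labels were checked with IL6, CXCL8 and PTGS2, targets of IL-1 signalling, which were higher with IL-1β + PF in 5 of 5 donors, with log2 fold changes of 7.09 to 8.79. Donor 3 had the smallest difference of the 5 donors in all 3 genes, with 4.54 for IL6 (9.06 to 10.88 in the others), 5.15 for CXCL8 (6.81 to 9.63) and 5.02 for PTGS2 (6.23 to 8.64). For IL6 this donor had both the highest value with PF alone (9.42) and the lowest with IL-1β + PF (13.96). For CXCL8 it was lowest with IL-1β + PF (10.73) but not highest with PF alone. The limma test was run on the 17992 genes that exceeded the 0-read value in 5 or more libraries, and a gene passed if its adjusted p was under 0.05 and its means lay 1 log2 unit or more apart.

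Of 11 tendon fibroblast markers in the table, 10 were tested and 4 passed, all lower with IL-1β + PF (SCX, MKX, COMP and TNC), where 6.68% of all genes tested passed and 3.57% did so as lower. With the donor as a block in the model 6 passed, again all lower, against 8.26% of all genes. The 2 added were the collagen genes COL1A1 (log2 fold change -1.38, adjusted p = 0.0682 without and 0.0147 with the block in limma) and COL1A2 (log2 fold change -1.28, adjusted p = 0.0614 and 0.0169), each lower in 5 of 5 donors. The fall was not shared by all markers. DCN was higher in 5 of 5 donors (log2 fold change 1.01) and EGR1 in 4 of 5 (0.47). FMOD (-1.31) and THBS4 (-1.22) were each lower in 4 of 5 donors, and none of these genes passed in either model. TNMD, a marker of mature tenocytes, was at 0 reads in all 10 libraries, while both collagen genes had log2 values of 16.51 to 19.51. Among markers of other cell types, T cell and B cell genes (CD3E and MS4A1) were at 0 reads, and the summed level of 7 endothelial markers was 232 to 714 normalized counts with PF alone and 46.1 to 106 with IL-1β + PF, most of it from ERG. The 6 mural and smooth muscle markers summed to 3956 to 37551 and 4651 to 13498 normalized counts, and 3 of them passed, all lower (RGS5, DES and CSPG4). The 8 leukocyte and macrophage markers summed to 61.3 to 1767 and 171 to 1943 normalized counts. Among them CD14 reached 10.72 on the log2 scale with PF alone and 10.73 with IL-1β + PF, and did not pass. Its difference was 5.32 in donor 4 and 6.84 in donor 5, and 0 to 1.13 in the others. Of 8 leukocyte markers 1 of 3 tested passed (CD68, higher), of 6 chondrocyte markers 1 of 3 tested (SOX9, lower), and of 5 adipocyte markers 1 of 3 tested (ADIPOQ, higher, with LEP at 0 reads). The part of these genes in the results below was not tested, and in bulk RNA fewer cells of a type and less RNA per cell cannot be told apart.

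Of the 10 IGF family genes 3 passed the test, against 6.68% of all genes tested. IGFBP3 and IGFBP5 were higher with IL-1β + PF (3.11% of all genes passed in this direction), and IGFBP2 was lower (3.57% did). All 3 are binding proteins, and the same 3 passed with the donor as a block in the model (8.26% of all genes). Neither ligand passed. IGF1R was the only other gene of the 10 to meet the adjusted p, and it did not pass because it missed the minimum fold change. Across the 10 genes the log2 fold changes had a median of 0.45, and the median was -0.01 over all genes tested. The members had been listed with earlier results of these data known, so these counts are a description.

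**Figure D1:**
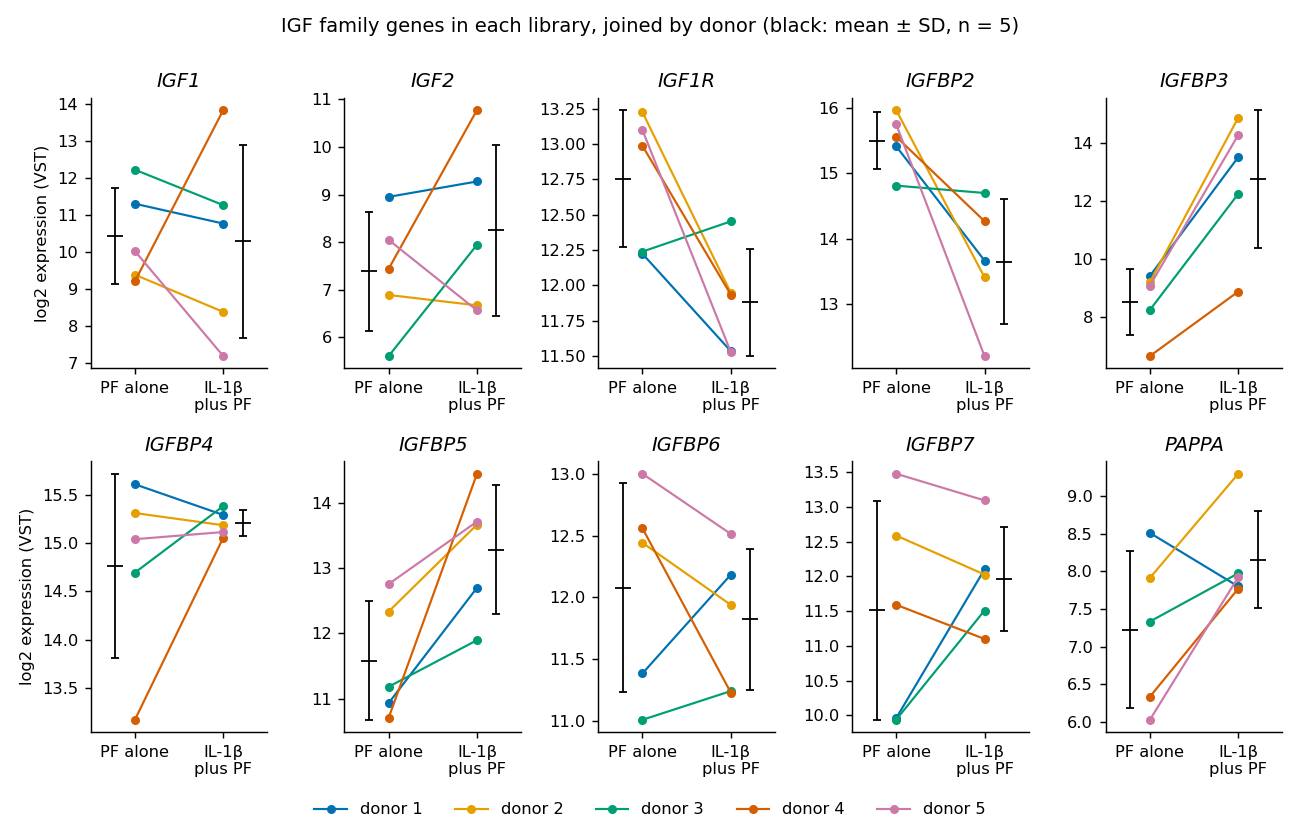
Log2 expression (variance-stabilized) of the 10 IGF family genes on the y axes, with PF-06650833 only (PF alone) at the left and IL-1β + PF at the right of each panel. Each coloured line joins the libraries of 1 donor, and black bars are the mean ± SD of 5 libraries. IGFBP3 and IGFBP5 rise and IGFBP2 falls along all 5 lines, while the lines of IGF1 go up in donor 4 and down in the other 4.

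IGFBP3, the main carrier of IGFs in blood and a secreted growth regulator in its own right, had the largest change of the family. Its log2 values in donors 1 to 5 were 9.41, 9.20, 8.23, 6.64 and 9.08 with PF alone, and 13.52, 14.89, 12.25, 8.87 and 14.29 with IL-1β + PF. Every donor had the higher value with IL-1β, but the groups overlapped, because donor 4 with IL-1β lay below donors 1, 2 and 5 without it. The mean rose from 8.51 ± 1.14 (SD, n = 5) to 12.76 ± 2.39 (SD, n = 5), and the log2 fold change was 4.25 ± 1.00 (SE, adjusted p = 0.0160 from limma), or 19.1-fold (95% confidence interval 4.13 to 87.9). With donor as a block the standard error was 0.44 and the adjusted p was 9.07e-04. Among the 560 genes that passed as higher, IGFBP3 ranked 37th by log2 fold change. The fold increase within a donor ran from 4.70 in donor 4 to 51.5 in donor 2. Without the block the call was lost when donor 1, 2 or 5 was left out (adjusted p of 0.0654 to 0.0701 from limma), and with the block it held without any 1 donor (3.68e-04 to 0.00791).

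IGFBP5, a binding protein that also attaches to extracellular matrix and is a substrate of PAPPA, was the other member that rose. With PF alone it had log2 values of 10.93, 12.33, 11.18, 10.71 and 12.75 in donors 1 to 5, and with IL-1β + PF of 12.70, 13.66, 11.89, 14.44 and 13.71. The difference was positive in 5 of 5 donors, from 0.71 in donor 3 to 3.74 in donor 4, and the groups overlapped. The mean rose from 11.58 ± 0.91 (SD, n = 5) to 13.28 ± 0.99 (SD, n = 5), or 3.25-fold (adjusted p = 0.0457 from limma), with a 95% confidence interval of 1.49 to 7.10. The adjusted p lay close to the threshold, and the call held in 4 of the 15 fits made with 1 library or 1 donor omitted (those without donor 3, without donor 2 or 5 with PF alone, and without donor 3 with IL-1β + PF). Without donor 4 the log2 fold change was 1.19 (adjusted p = 0.153 from limma). With the donor as a block the adjusted p over all donors was 0.0198 in limma. In that model the call was lost in 2 of the 5 fits that left out 1 donor (adjusted p of 0.00502 to 0.0726 from limma over the 5 fits).

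IGFBP2, which binds both ligands and is the only member of the family whose groups did not overlap, was lower with IL-1β + PF. Of all genes tested, 12.7% had groups that did not overlap, 6.41% in the lower direction. The log2 values of IGFBP2 in donors 1 to 5 were 15.42, 15.97, 14.81, 15.56 and 15.75 with PF alone and 13.67, 13.41, 14.70, 14.27 and 12.20 with IL-1β + PF. Its mean fell from 15.50 ± 0.44 (SD, n = 5) to 13.65 ± 0.95 (SD, n = 5), and the log2 fold change was -1.85 ± 0.41 (SE, adjusted p = 0.0117 from limma), or 3.61-fold lower. The size differed widely between donors, from a difference of -0.11 in donor 3, whose libraries were nearly level, to -3.55 in donor 5. Without donor 3 the log2 fold change of IGFBP2 was -2.29 (adjusted p = 0.00537 from limma). That donor also had the smallest differences in IL6, CXCL8 and PTGS2, with the highest IL6 value already with PF alone. The part of those smaller differences was not tested. The call was lost without donor 1 (adjusted p = 0.0599 from limma) and without donor 2 (adjusted p = 0.0719 from limma), with log2 fold changes of -1.88 and -1.68. With the donor as a block the adjusted p over all donors was 0.0195 in limma. In that model the call was again lost in 2 of the 5 fits that left out 1 donor (adjusted p of 0.00592 to 0.0727 from limma over the 5 fits).

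**Figure D2:**
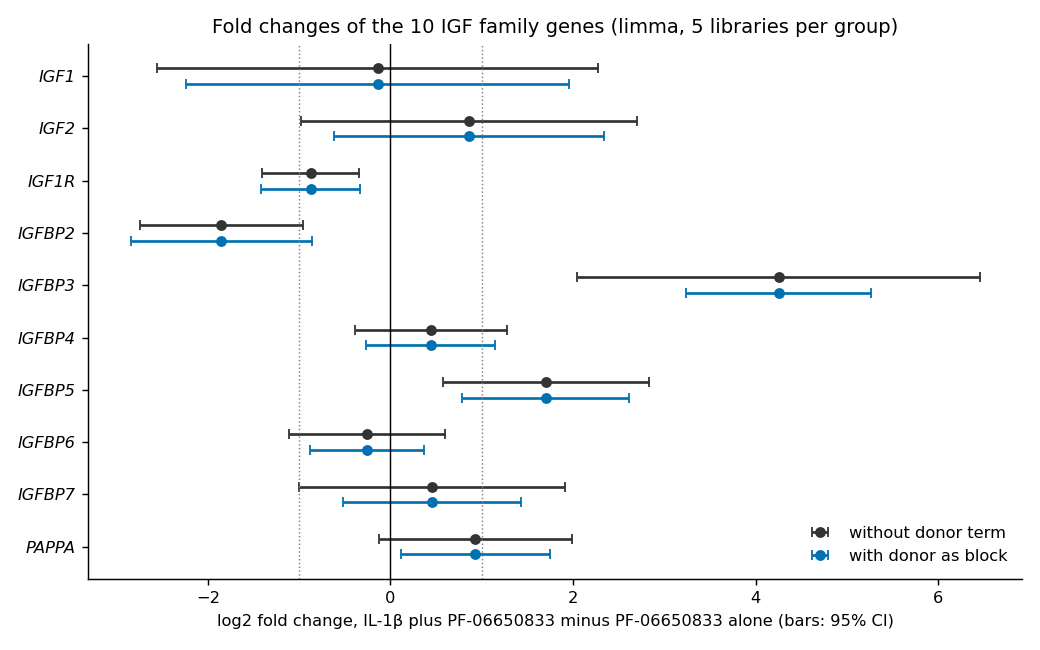
Log2 fold changes of the 10 genes (x axis, IL-1β + PF minus PF alone) from limma with 5 libraries per group, with 95% confidence intervals. Black points are the model without a donor term, blue points the model with the donor as a block, and dotted lines mark a log2 fold change of 1 in either direction. The block narrows the interval of IGFBP3 most visibly, and the intervals of IGF1 and IGF2 stay wide and include 0 in both models.

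IGF1R, the tyrosine kinase receptor through which both ligands signal, had log2 values of 12.22, 13.23, 12.24, 12.99 and 13.10 with PF alone and of 11.53, 11.95, 12.45, 11.93 and 11.53 with IL-1β + PF. It was lower in 4 of 5 donors and level to slightly higher in donor 3 (difference 0.21). The log2 fold change was -0.88 ± 0.24 (SE, adjusted p = 0.0323 from limma), which met the adjusted p, as 15.5% of all genes did (7.89% as lower), and missed the minimum fold change. It passed both criteria when donor 3 was left out (log2 fold change -1.15, adjusted p = 0.00961 from limma), when donor 1 or donor 3 with PF alone was left out (at -1.01 for donor 1), and when donor 3 with IL-1β + PF was left out (-1.02), and with array weights (-1.01).

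The ligands varied more between donors than with treatment. Donor accounted for 53.1% of the sum of squares of IGF1 and 54.9% of that of IGF2, and treatment for 0.147% and 8.80%. Over all genes tested the medians were 45.8% for donor and 19.1% for treatment. Donor also had the larger share for IGFBP4, IGFBP6, IGFBP7 and PAPPA, so this was not particular to the ligands. IGF1, the ligand that mediates much of the action of growth hormone, had log2 values of 11.30, 9.39, 12.22, 9.21 and 10.02 in donors 1 to 5 with PF alone and of 10.77, 8.38, 11.26, 13.83 and 7.19 with IL-1β + PF. It was lower in donors 1, 2, 3 and 5, by 0.53 to 2.83 on the log2 scale, and higher in donor 4, by 4.62 or 24.6-fold. Over all donors no difference was detected (log2 fold change -0.14, 95% confidence interval -2.56 to 2.28, adjusted p = 0.949 from limma). Without donor 4 the log2 fold change was -1.33 (adjusted p = 0.391 from limma), and a fit of the same libraries with the donor as a block, added after these values were seen, gave an adjusted p of 0.0361 in limma. The spread of IGF1 with IL-1β + PF reached 99.7-fold from the lowest to the highest donor.

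IGF2, the ligand best known as a fetal growth factor, had log2 values of 8.95, 6.89, 5.61, 7.44 and 8.05 with PF alone and of 9.28, 6.67, 7.95, 10.78 and 6.57 with IL-1β + PF. It was higher in donors 1, 3 and 4 and lower in donors 2 and 5, and did not pass the test (log2 fold change 0.86, 95% confidence interval -0.98 to 2.70, adjusted p = 0.545 from limma). For both ligands donor 4 had the largest positive difference (4.62 and 3.34) and donor 5 the largest negative one (-2.83 and -1.48).

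PAPPA, the protease that releases IGFs from IGFBP4 and IGFBP5, had log2 values of 8.51, 7.91, 7.33, 6.33 and 6.03 with PF alone and of 7.80, 9.30, 7.98, 7.77 and 7.93 with IL-1β + PF. It was higher in 4 of 5 donors, by 0.64 to 1.90, and lower in donor 1. The log2 fold change of 0.93 did not pass (95% confidence interval -0.13 to 1.99, adjusted p = 0.225 from limma), and with the donor as a block its adjusted p was 0.0963. Left out as an alternative chosen later, donor 1 changed the call in the blocked fit (log2 fold change 1.34, adjusted p = 0.0193 from limma).

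The other binding proteins did not pass. IGFBP4, a binding protein that mainly withholds IGFs from the receptor, had log2 values of 15.61, 15.31, 14.70, 13.17 and 15.04 with PF alone and of 15.29, 15.19, 15.39, 15.06 and 15.12 with IL-1β + PF. Its libraries with IL-1β lay within 0.33 of each other, against a range of 2.44 without, where donor 4 was lowest. Its log2 fold change was 0.44 (95% confidence interval -0.39 to 1.27, adjusted p = 0.483 from limma).

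IGFBP6, which prefers IGF2 over IGF1, ran from 11.01 to 13.00 with PF alone and from 11.23 to 12.51 with IL-1β + PF (log2 fold change -0.26, 95% confidence interval -1.12 to 0.60, adjusted p = 0.717 from limma). It was lower in donors 2, 4 and 5 and higher in donors 1 and 3. IGFBP7 ran from 9.94 to 13.48 and from 11.10 to 13.09 (1.37-fold higher, 95% confidence interval 0.499 to 3.76, adjusted p = 0.706 from limma). Its directions were those of IGFBP6 in all 5 donors, with differences of 2.14 in donor 1 and 1.57 in donor 3.

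**Figure D3:**
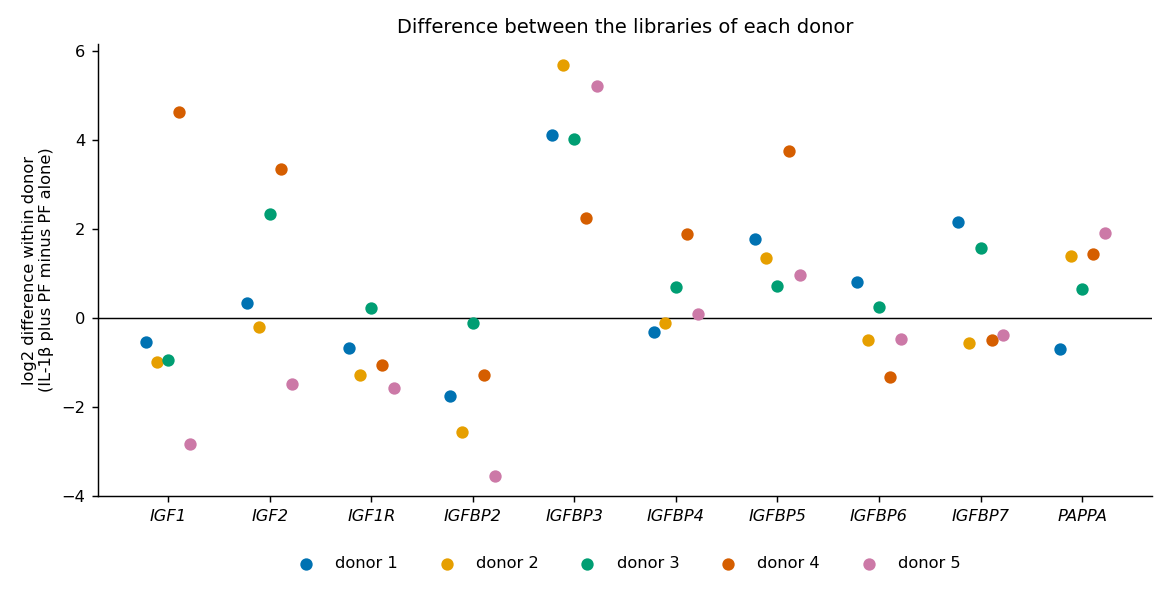
Difference in log2 expression between the 2 libraries of each donor (y axis, IL-1β + PF minus PF alone) for the 10 IGF family genes (x axis), coloured by donor. All 5 points of IGFBP3 and IGFBP5 lie above 0 and all 5 of IGFBP2 below it, and donor 4 has the highest point for IGF1, IGF2, IGFBP4 and IGFBP5 and the lowest for IGFBP3 and IGFBP6.

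The members differed in how their variation divided between treatment and donor. Treatment accounted for 66.1% of the sum of squares over the 10 libraries for IGFBP2, 61.7% for IGFBP3, and 55.7% for IGF1R, against a median of 19.1% over all genes tested. For IGFBP6 its share was 3.85%. Donor accounted for 69.4% for IGFBP7 and 65.8% for IGFBP6, against a median of 45.8% over all genes. The remainder, which holds the differences between donors in their response, was 46.7% for IGF1 and 4.87% for IGFBP3.

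Donor 4 had the difference farthest from the median of the donors in 5 of the 10 genes, whereas it did in 27.7% of all genes tested. IGF1, IGF2, IGFBP4 and IGFBP5 had their highest difference in that donor and IGFBP3 its lowest, 2.23 on the log2 scale. For 3 of the 10 genes the donors all moved the same way, which held for 32.7% of all genes tested.

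Beyond these genes, 94 genes of the IGF pathway were described from lists, and 84 could be tested. Of these 8 passed, with 2 higher and 6 lower with IL-1β + PF. Their share of 9.52% was near the 6.68% of all genes tested (3.11% higher, 3.57% lower), and the median log2 fold change of the 84 was 0.000564, against -0.01 over all genes. They came from the lists of proteases and regulators of binding proteins, IGFBP-related proteins, the growth hormone axis, and PI3K, AKT and mTOR signalling. None of 6 other ligands, receptors and carriers and none of 18 receptor adaptors passed.

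**Figure D4:**
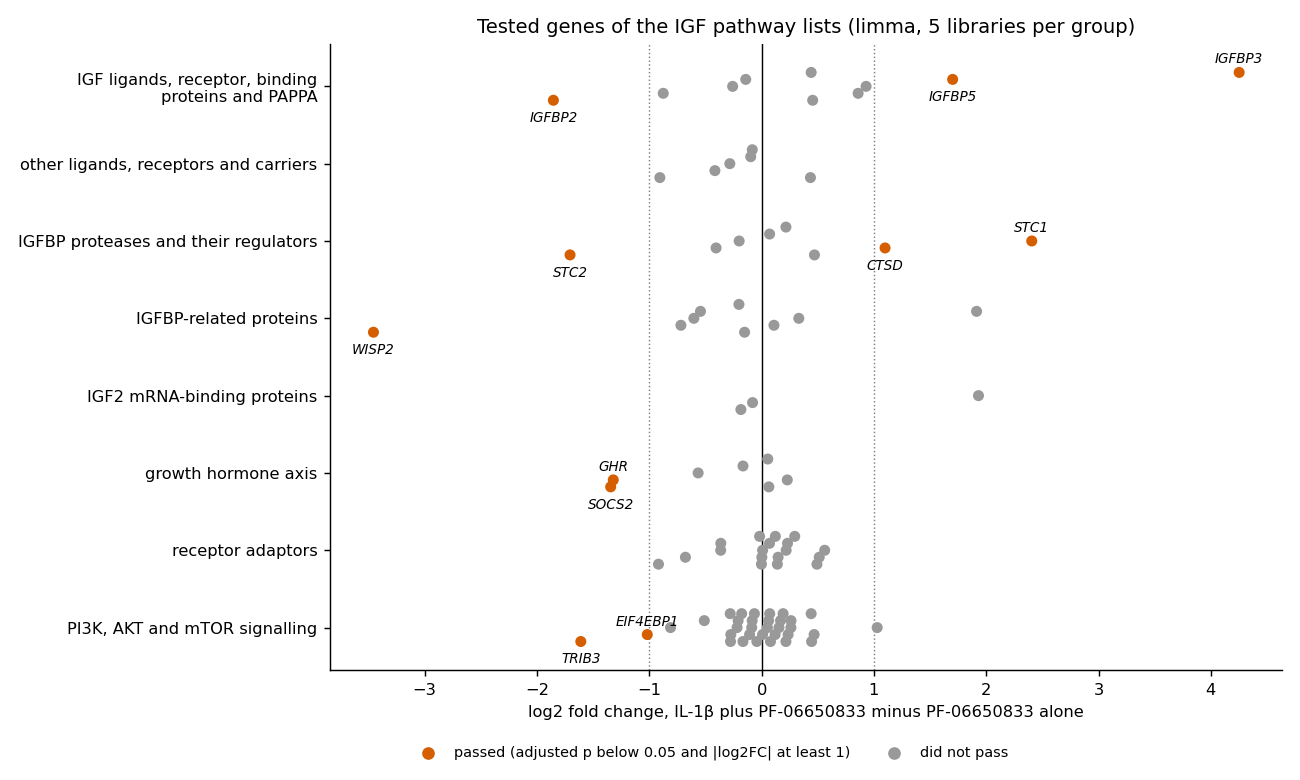
Log2 fold changes (x axis, IL-1β + PF minus PF alone, limma with 5 libraries per group) of every tested gene of the IGF lists, 1 row of points per list. Orange points met both the adjusted p (under 0.05) and the minimum of 1 log2 unit and are named, and grey points did not. Passing genes stand in 5 of the 8 lists, and the adaptor and PI3K lists cluster around 0.

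Of 8 tested proteases and regulators of IGF binding proteins, 3 passed, where 6.68% of all genes did. STC1 and STC2, both inhibitors of PAPPA, moved in opposite directions. STC1 had log2 values of 9.62, 9.82, 9.99, 7.79 and 7.68 with PF alone and of 11.50, 12.01, 11.79, 11.19 and 10.44 with IL-1β + PF, and the groups did not overlap. Its log2 fold change was 2.41 ± 0.50 (SE, adjusted p = 0.00865 from limma), or 5.30-fold higher.

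STC2 had log2 values of 12.30, 12.39, 12.95, 13.53 and 12.69 with PF alone and of 10.62, 10.98, 11.77, 11.62 and 10.34 with IL-1β + PF, again with no overlap. Its log2 fold change was -1.71 ± 0.31 (SE, adjusted p = 0.00436 from limma), or 3.26-fold lower. Both stanniocalcins changed in 5 of 5 donors, and both passed in all fits made with 1 library or 1 donor omitted. CTSD, the lysosomal protease cathepsin D that can cleave IGF binding proteins at acid pH, had log2 values of 14.25, 15.03, 14.62, 14.45 and 14.06 with PF alone and of 15.41, 15.96, 15.24, 15.46 and 15.83 with IL-1β + PF. It rose by 1.10 (adjusted p = 0.00551 from limma) in 5 of 5 donors, with no overlap of the groups. Without donor 5 it missed the minimum fold change, at 0.93, as it did without the PF alone library of that donor, at 0.99. PAPPA2, a relative of PAPPA, had reads in 1 of 10 libraries and was not tested, and the matrix proteases HTRA1 and HTRA3 had log2 fold changes of -0.41 and 0.22 and did not pass.

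Of 7 tested genes of the growth hormone axis 2 passed, both lower, where 3.57% of all genes passed as lower. GHR, the growth hormone receptor, had log2 values of 9.79, 9.69, 8.88, 9.47 and 9.58 with PF alone and of 8.12, 7.95, 8.45, 8.40 and 7.90 with IL-1β + PF. Its mean fell from 9.48 ± 0.35 (SD, n = 5) to 8.16 ± 0.25 (SD, n = 5), and the log2 fold change was -1.32 ± 0.19 (SE, adjusted p = 0.00136 from limma). SOCS2, a feedback inhibitor of growth hormone signalling, had log2 values of 12.08, 11.66, 11.67, 10.87 and 11.43 with PF alone and of 10.66, 10.03, 10.15, 10.02 and 10.14 with IL-1β + PF. Its mean fell from 11.54 ± 0.44 (SD, n = 5) to 10.20 ± 0.26 (SD, n = 5), and the log2 fold change was -1.34 ± 0.21 (SE, adjusted p = 0.00184 from limma). The groups did not overlap for either gene, and each was lower in 5 of 5 donors. JAK2 and STAT5A, which carry the growth hormone signal, had log2 fold changes of 0.23 and 0.06 and did not pass.

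**Figure D5:**
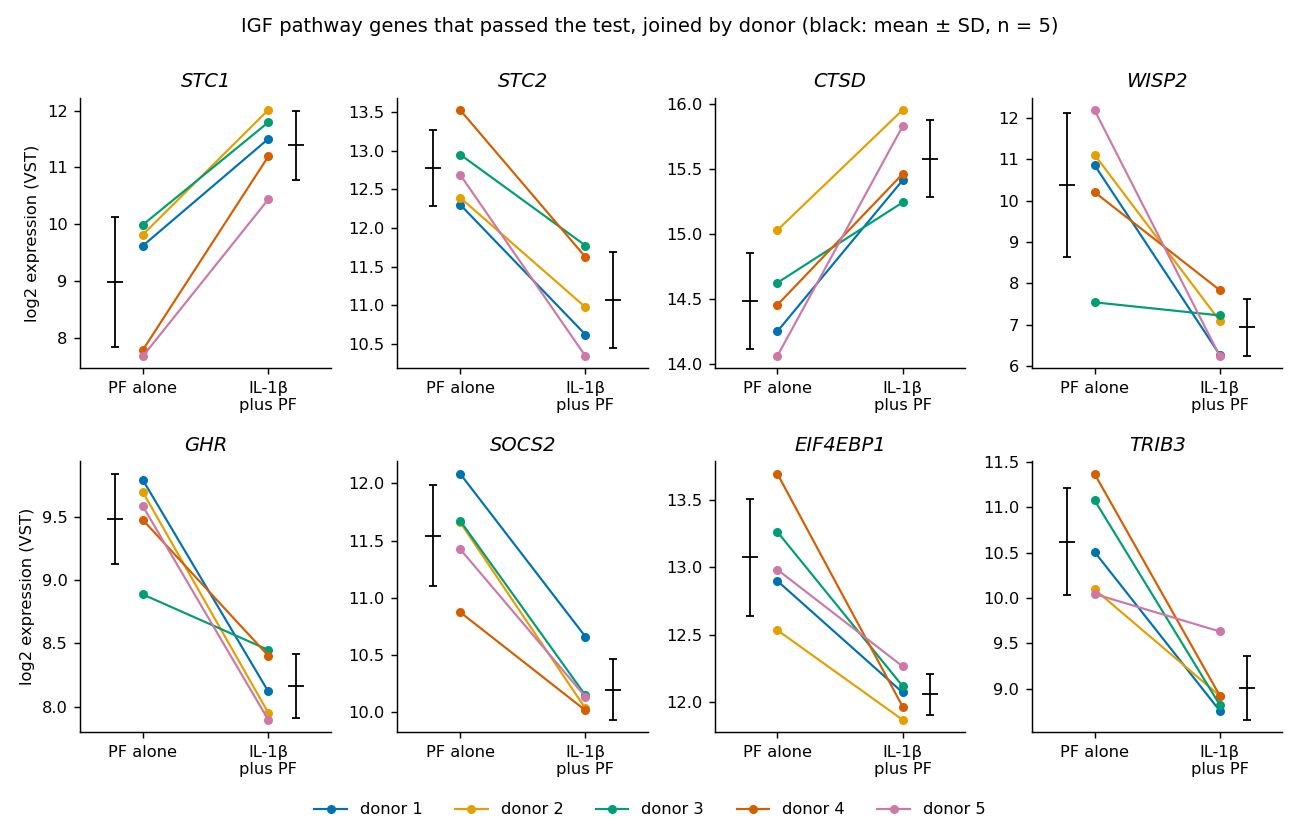
Log2 expression (variance-stabilized, y axes) of the 8 IGF pathway genes that passed, with PF alone at the left and IL-1β + PF at the right of each panel, lines joining the libraries of a donor, and black bars showing the mean ± SD of 5 libraries. STC1 and CTSD rise and the other 6 fall in every donor, with the flattest line of WISP2 in donor 3 and that of TRIB3 in donor 5.

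Among 9 tested IGFBP-related proteins, a group with distant similarity to the binding proteins, 1 passed, and a single gene of 9 says nothing particular about the group when 6.68% of all genes passed. WISP2, a matricellular protein also called CCN5, had log2 values of 10.86, 11.11, 7.54, 10.21 and 12.20 with PF alone and of 6.27, 7.09, 7.22, 7.83 and 6.24 with IL-1β + PF. Donor 3 was already low without IL-1β, so the groups overlapped, and without that donor the log2 fold change of WISP2 was -4.24 (adjusted p = 8.88e-04 from limma). With all donors the log2 fold change was -3.46 ± 0.72 (SE, adjusted p = 0.00878 from limma), and the call was lost without donor 1 (adjusted p = 0.0613 from limma) and without donor 2 (adjusted p = 0.0514 from limma).

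Inside the cell, 2 of 33 tested genes of PI3K, AKT and mTOR signalling passed, both lower, a share of 6.06% that was close to the 6.68% of all genes. TRIB3, a stress-induced pseudokinase that binds AKT, had log2 values of 10.51, 10.10, 11.08, 11.37 and 10.04 with PF alone and of 8.76, 8.92, 8.82, 8.92 and 9.63 with IL-1β + PF. It was lower in every donor, and its log2 fold change was -1.61 ± 0.27 (SE, adjusted p = 0.00311 from limma). EIF4EBP1, the translation repressor that mTOR complex 1 inactivates, lay close to the minimum fold change at -1.02 ± 0.19 (SE, adjusted p = 0.00467 from limma). Its groups did not overlap, but it fell short of that minimum after centring each library on its median (-0.99), with array weights (-0.98), and without donor 3 (-0.99), donor 4 (-0.84), donor 3 or donor 4 with PF alone (-0.97 and -0.86), or donor 2 or donor 4 with IL-1β + PF (-0.97 and -0.99).

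Genes closest to the receptors did not pass. The adaptors IRS1 and IRS2, which couple the receptor to PI3K, had log2 fold changes of 0.51 (adjusted p = 0.0734 from limma) and 0.56 (adjusted p = 0.0941 from limma). With the donor as a block their adjusted p values were 0.0529 and 0.0333 in limma. AKT1 and AKT2 had log2 fold changes of 0.05 and -0.21. Smaller changes were present in both lists. Without the minimum fold change, 2 of 18 receptor adaptors met the adjusted p, both lower. So did 9 of 33 PI3K, AKT and mTOR genes (4 higher, 5 lower), against 15.5% of all genes tested. The insulin receptor gene INSR and the scavenger receptor gene IGF2R, which clears IGF2, had log2 fold changes of -0.10 (95% confidence interval -0.43 to 0.24) and -0.08 (95% confidence interval -0.49 to 0.32), so that changes of 2-fold lay outside both intervals. IGFBP1, the binding protein known from liver, had reads in 1 of 10 libraries.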

How the data were processed

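Per the submitters' notes and methods, Salmon (version 1.8, GC-bias correction) assigned reads to EquCab3.0 transcripts, tximport summed them per gene and DESeq2 (version 1.36) followed. The values deposited by the authors are on a variance-stabilized log2 scale that the sources used here do not name. It was inferred from a lowest value (3.43) common to all libraries. Because 0 reads fix this transformation, it was inverted to give normalized counts, and 65.3% to 84.7% of low values lay within 0.15 of a whole read in a library. Depth is therefore an estimate, and low values are compressed, which understates their fold changes.

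The limma model (3.58.1, under R 4.3.3) took genes that exceeded that value in 5 or more of 10 libraries, used a trended prior variance, and adjusted p over all of them (Benjamini-Hochberg). The study names no donor term, so values are from a fit without one unless the block is named. That fit ignores the pairing of libraries by donor. A fit with the replicate block was run on the same genes and is given for some of those named. The replicate number stands for the tenocyte line in the labels. Paired libraries of a donor deviated together from their group means (correlation 0.367 to 0.506, other pairs -0.266 to 0.0869). The fit was also run on simulated data. These held no donor effect and a capped spread for the changed genes, so they do not check calls on genes that differ widely between donors. Genes named are all members, the pathway genes that passed, 8 related genes, markers, and the 2 genes most correlated with each member that passed, and HTRA1, HTRA3, JAK2, STAT5A, AKT1, AKT2, LRP1 and IGF2BP2 were named after their values were seen. Members and lists were chosen with earlier results of these data known. Names were matched to a RefSeq table of another horse assembly (10 of 10 members), and no sequences, gene lengths or positions were used here. The donors are separate horses. Alternatives covered thresholds, filters, scales (pseudocounts of 1 and 0.5), normalizations, variance models and left-out libraries or donors, and leaving out donors under the block was added after the data were seen.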

Additional observations from a re-analysis of the deposited data

Results flagged for a closer look

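In 5 of 46 groups of 5 libraries, over the IGF family genes and the pathway genes named, 1 library lay far from the other 4, where chance gives about 2.3. PAPPA was at 9.30 in donor 2 with IL-1β + PF, against 7.77 to 7.98 in the other donors. SOCS2 was at 10.66 in donor 1 with IL-1β + PF, against 10.02 to 10.15, and still below every library with PF alone. TRIB3 was at 9.63 in donor 5 with IL-1β + PF, against 8.76 to 8.92. The other 2 are genes with reads in a single library, PAPPA2 at 4.09 in donor 1 with PF alone and IGFBP1 at 4.10 in donor 5 with IL-1β + PF, each about 2 normalized counts. In these 2 groups the other 4 libraries tie at the lowest value, so the rule flags them by construction. The chance figure does not apply to them, and the count of 5 is no sign of an excess.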

How the results depend on the processing

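The causes of the changes below were not tested. With the replicate block 1486 genes passed in place of 1202 (1195 in both), and the block changed the call of no IGF family gene. Without a minimum fold change 2782 genes passed (1362 higher, 1420 lower), of the IGF family 2 lower, and of the pathway genes 17 (6 higher, 11 lower). The replicate block without a minimum gave 3996 (1969 higher, 2027 lower), 2 family genes lower and 21 pathway genes (8 higher, 13 lower). At an adjusted p below 0.01, 719 genes passed (345 higher, 374 lower) and 0 of the IGF family in either direction (0 higher, 0 lower), while 4 had an adjusted p below 0.05. Testing all genes that vary, leaving out the variance trend and a robust variance each left 1 family gene higher, with IGFBP5 at adjusted p of 0.0505, 0.0596 and 0.0581 from limma, and array weights gave 2 lower. Leaving out a library or a donor, with the donors also under the block, gave 762 to 1677 genes (356 to 777 higher, 389 to 942 lower), 0 to 4 family genes (0 to 2 higher, 0 to 2 lower) and 1 to 4 pathway genes higher. Across these fits the log2 fold change ran from -1.33 to 0.63 for IGF1, -0.53 to 0.0104 for IGFBP6, -0.20 to 0.0225 for IGF2R and -0.19 to 0.00268 for INSR, all of which had not passed. Of 22 named genes, 9 kept direction and call in all 33 alternatives in which they were tested.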

Other observations

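Some IGF pathway genes moved in the same direction in all 5 donors without passing the test. Such agreement of the donors is common, as 32.7% of all genes tested had it, passing or not. IGF2BP2 and LRP1 are 2 of several such genes and were picked after their values were seen. IGF2BP2, which binds IGF2 mRNA, had log2 values of 8.73, 8.59, 8.28, 5.26 and 8.42 in donors 1 to 5 with PF alone and of 9.85, 10.89, 10.01, 7.60 and 10.58 with IL-1β + PF. It was higher in every donor, with differences of 1.12 to 2.35 and a log2 fold change of 1.93 (adjusted p = 0.107 from limma). It passed with the replicate block (adjusted p = 8.10e-04 from limma), and 59.8% of its sum of squares lay between donors, of whom donor 4 was lowest in both groups, as it was for IGFBP3. LRP1, an endocytic receptor that binds IGFBP3, was lower in every donor (log2 fold change -0.91, adjusted p = 0.116, and 0.0176 with the replicate block from limma).

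Of 13855 tested genes with a symbol, those most like IGFBP3 across the 10 libraries were BDKRB1, the inducible bradykinin receptor (r = 0.978, log2 fold change 2.23), and SALL4 (r = 0.970, log2 fold change 1.88). For IGFBP2 they were WDR48 (r = 0.981, log2 fold change -0.19) and ZCCHC24 (r = 0.980, log2 fold change -1.02), and for IGFBP5 NTF4 (r = 0.954, log2 fold change 0.56) and EQMHCC1 (r = 0.939, log2 fold change 0.79). Likeness was the Pearson correlation of log2 values over libraries that share donors and treatment, so it describes these libraries only.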
